A study of Mus musculus with 12 samples.

Results

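The 10 genes described here encode receptors and cytoplasmic partners of the BAFF pathway in B cells: the receptors TACI (Tnfrsf13b) and BAFF-R (Tnfrsf13c), the adaptors Traf1, Traf2, Traf3, Traf5 and Traf6, the ubiquitin ligases cIAP1 (Birc2) and cIAP2 (Birc3), and NF-κB-inducing kinase NIK (Map3k14). They were taken by symbol from the 22561 genes of the count table. RNA was measured in follicular (FO) B cells sorted from the spleens of C57BL/6 mice that were 10 weeks old, gated on surface markers that included B220hi AA4.1- CD23+ CD21mid. The 4 groups, each of 3 samples, were unstimulated cells, cells given IFNα (a type I interferon, 0.1 μg/mL), cells given CpG (a synthetic DNA sensed by TLR9, 1 μg/mL), and cells given CpG + IFNα, with stimulation for 12 h. For the last group another passage of the study's text gives CpG at 0.1 μg/mL. Whether the unstimulated cells were also kept in culture for 12 h, and whether the 3 samples of a group came from separate mice, is not stated in the sources used here. The p-values therefore measure the spread between these samples, and a difference from unstimulated cells cannot be told apart from an effect of culture.

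BAFF is a survival factor for mature B cells, which sense it mainly through BAFF-R, while TACI binds both BAFF and its relative APRIL. In resting B cells, TRAF3 bridges NIK to a complex of TRAF2 with cIAP1 or cIAP2, and the cIAPs mark NIK for degradation. Engagement of BAFF-R or CD40 draws TRAF3 away, and NIK then accumulates and starts the processing of p100 (Nfkb2), the noncanonical NF-κB route. TRAF6 carries signals of TLR9 and MyD88 to canonical NF-κB, and TRAF1 and TRAF5 are further adaptors of TNF receptors. Much of this circuit is controlled through protein stability, which RNA counts do not measure.

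The libraries counted molecules at the 3′ end of transcripts by unique molecular identifiers (UMIs), so that counts do not grow with transcript length. Levels are set side by side between genes on that scale, although the genes may differ in how well their 3′ ends are annotated, which was not tested for the 10 genes. Totals were between 922450 and 1103064 counts in unstimulated cells and between 1884673 and 2923865 with CpG + IFNα, and levels are given as CPM, the counts scaled to a common library total after TMM normalization, as mean ± SD of n = 3. Replicate 2 of IFNα and replicate 2 of CpG + IFNα, each the deepest sample of its group, differed most from their group, with a chi-square per degree of freedom of 4.71 and 6.40 against 2.25 between the other IFNα samples, and of 4.84 and 6.96 against 2.78 between the other CpG + IFNα samples. With either of them left out, the number of the 10 genes called below differed by at most 1 in each of the 6 comparisons. The summed CPM of 9 B cell marker genes was between 10732 and 12260.2 in unstimulated cells, between 9266 and 10431 after IFNα, between 2363 and 2388 after CpG and between 2020.0 and 2065 after both, and all 9 were detected in every group. T cell markers summed to at most 3.64 CPM in any sample, and NK cell markers at most 1.23 CPM. Not every listed marker was analysed here: 4 of 6 for T cells, 3 of 4 for NK cells, 6 of 7 for myeloid cells and 5 of 6 for plasma cells. Myeloid markers summed to between 5.29 and 22.5 CPM in unstimulated cells and to at most 1.64 CPM in stimulated cells, marginal zone B cell markers to between 214 and 221 CPM in unstimulated cells and between 21.8 and 30.8 CPM with CpG + IFNα, and erythroid markers to between 57.4 and 345 CPM in unstimulated cells, between 15.3 and 336 CPM after IFNα and between 4.99 and 72.0 CPM in both groups with CpG. Plasma cell markers summed to between 255 and 380 CPM in unstimulated cells, between 181 and 210 CPM after IFNα, between 186 and 205 CPM after CpG, and between 200.1 and 271 CPM after both. Plasmacytoid dendritic cell markers summed to between 1.82 and 7.49 CPM in unstimulated cells, between 8.39 and 10.1 CPM after IFNα, between 6.42 and 19.6 CPM after CpG, and between 20.01 and 22.1 CPM after both, with Siglech and Klk1 at no more than 3 counts in any sample. The part of these differences in the results below was not tested, and in bulk RNA fewer cells of a type and less RNA per cell cannot be told apart.

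All 10 genes passed the filter on low counts, and their mean level lay between the 42.2 percentile (Map3k14) and the 95.9 percentile (Tnfrsf13c) of the 9431 genes tested. A gene is called changed below where edgeR's quasi-likelihood test gave an adjusted p under 0.1, and a differentially expressed gene (DEG) where the change was also over 2-fold. With CpG, 10 of 10 genes passed the test against unstimulated cells, 3 up and 7 down, beside 74.9% of all genes tested (36.5% up, 38.4% down), and 6 were DEGs beside 45.6% of all genes. Between 7 and 9 of the 10 passed when a sample was left out (7 without CpG replicate 1), and 8 with DESeq2. Over all genes 6939 of 9636 passed without CpG replicate 1, and 7053 of 13675 with DESeq2. In 10 of 10 the groups did not overlap, as in 73.2% of all genes. On the log2 scale the 10 genes had a median change of -0.99, and all genes -0.03. With CpG + IFNα, 8 genes changed (76.4% of all genes), 2 up (37.6%) and 6 down (38.8%), 6 of them DEGs (45.9%), and 8 did not overlap (73.9%). With IFNα alone 4 genes changed (24.3% of all genes), 1 up (12.4%) and 3 down (11.9%), each by less than 2-fold, so that 0 were DEGs (8.63% of all genes), and the same 4 did not overlap (32.4%). Since CpG changed most of the transcriptome, the share of the 10 genes that changed says little by itself, and the size and direction for each gene are given below. The 3 comparisons share the unstimulated samples, and so their values are set side by side without a test of their likeness.

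**Figure D1:**
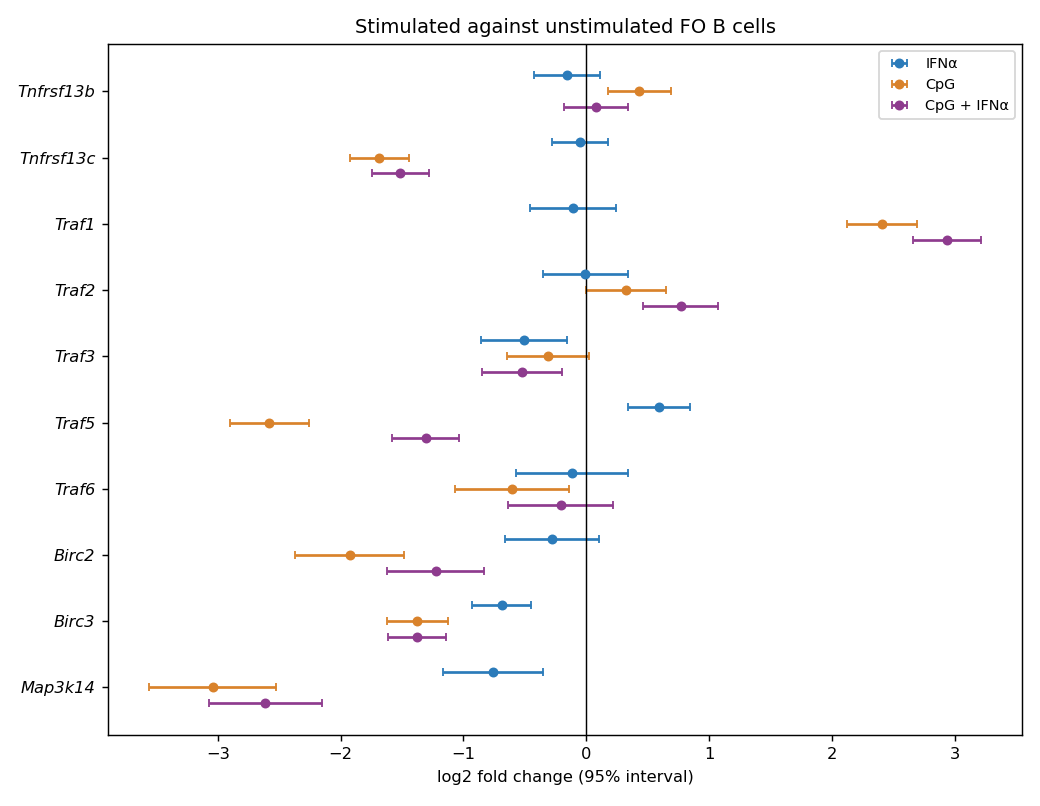
Log2 fold change (x axis) of each of the 10 genes against unstimulated FO B cells, with 95% intervals, for IFNα, CpG and CpG + IFNα. Traf1 lies far to the right with CpG (2.41) and CpG + IFNα (2.94), while Map3k14, Traf5, Birc2, Tnfrsf13c and Birc3 lie to the left of -1 in both.

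The receptors of BAFF moved in opposite directions with CpG. Tnfrsf13c (ENSMUSG00000068105, chr15:82221743-82224369, minus strand, GRCm38), which encodes BAFF-R, had the highest mean level of the 10 genes, with 547, 600.1 and 544 CPM in the unstimulated samples, 538, 539 and 556 after IFNα, 171, 150 and 202 after CpG, and 194, 182 and 217 after CpG + IFNα. Every sample with CpG was below every sample without it. Tnfrsf13c fell 3.21-fold with CpG (log2 -1.68, SE 0.12, edgeR adjusted p = 2.52e-14) and 2.85-fold with CpG + IFNα (log2 -1.51, SE 0.11, edgeR adjusted p = 1.71e-13). With IFNα alone the difference was -0.05 on the log2 scale (95% interval -0.28 to 0.18, edgeR adjusted p = 0.815).

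Tnfrsf13b (ENSMUSG00000010142, chr11:61126755-61149372, plus strand), which encodes TACI, had 200.2, 272 and 199 CPM in unstimulated cells, 212, 187 and 201 after IFNα, 294, 328 and 281 after CpG, and 229, 269.8 and 204 after CpG + IFNα. The CpG samples were the highest of all, and the other 3 groups overlapped each other. The gene rose 1.35-fold with CpG (log2 0.43, SE 0.13, edgeR adjusted p = 0.00329), whereas with CpG + IFNα the difference from unstimulated cells was 0.08 on the log2 scale (95% interval -0.18 to 0.34, edgeR adjusted p = 0.591). That value rests on unstimulated replicate 2, the highest of its group: without it the log2 fold change was 0.26 and passed the threshold (edgeR adjusted p = 0.0894). The share of Tnfrsf13b among the counts of the 2 receptors was 28.2 ± 2.54% in unstimulated cells and 26.9 ± 1.26% with IFNα, but 63.3 ± 5.25% with CpG and 54.1 ± 5.66% with CpG + IFNα. Per sample this share was at most 31.2% without CpG (95% Clopper-Pearson interval 27.997 to 34.5%) and at least 48.4% with CpG (44.9 to 51.9%). All shares are given as a description, with no test, and their intervals cover counting error only.

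**Figure D2:**
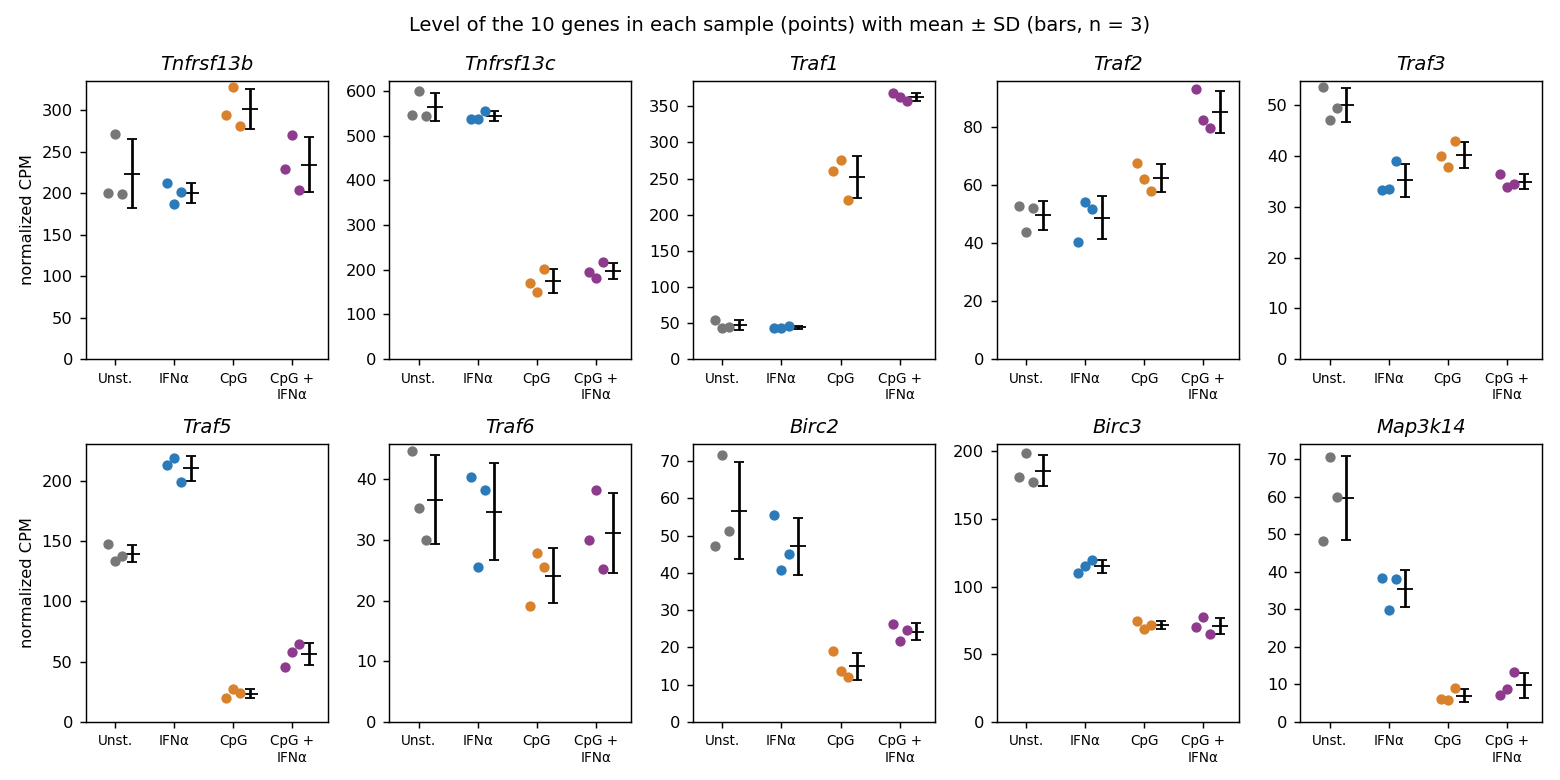
Normalized CPM (y axis, linear from 0, a scale for each gene) of the 10 genes in each sample (points) with mean ± SD (bars, n = 3) in the 4 groups. Tnfrsf13c, Traf5, Birc2, Birc3 and Map3k14 are lower in all CpG samples than in all samples without CpG, and Traf1 is higher, from 220 to 369 CPM against 42.4 to 54.6 CPM.

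Among the TRAF genes, Traf1 and Traf5 had the largest responses to CpG, and in opposite directions. Their promoters are shown because of this contrast, as the 250 bases before the RefSeq start site on GRCm38.p6, 5′ to 3′ on the strand of the gene (Traf1 chr2:34961773-34962022, minus strand, Traf5 chr1:192092600-192092849, minus strand), in lower case since neither holds any of the 7 motifs searched. For Traf5 the RefSeq start lies outside the GENCODE gene, and the tail of this promoter's table entry was not found in a GENCODE transcript.
Traf1: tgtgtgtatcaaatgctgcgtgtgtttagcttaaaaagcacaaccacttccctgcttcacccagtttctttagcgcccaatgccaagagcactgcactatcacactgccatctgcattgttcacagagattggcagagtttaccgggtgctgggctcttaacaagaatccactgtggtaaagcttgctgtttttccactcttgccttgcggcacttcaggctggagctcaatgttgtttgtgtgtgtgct
Traf5: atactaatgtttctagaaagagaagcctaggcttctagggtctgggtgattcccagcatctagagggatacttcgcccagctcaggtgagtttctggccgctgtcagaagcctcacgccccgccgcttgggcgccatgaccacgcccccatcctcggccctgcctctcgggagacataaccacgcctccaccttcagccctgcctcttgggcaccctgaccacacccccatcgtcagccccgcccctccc
The motifs, searched on both strands of the same 250 bases in every promoter, were the NF-κB consensus by its name, the ISRE (GAAA, any 2 bases, GAAA), the ETS-IRF composite (GGAA, any 2 bases, GAAA), the GAS element TTCNNNGAA, AP-1 TGANTCA, CRE TGACGTCA and the E-box CACGTG. Among 32851 RefSeq promoters, between 1.55% (CRE) and 7.02% (GAS) held each of them. All 10 genes matched the promoter table, with 11 promoters in all, of which 0 held the ISRE (2.98% of all promoters), 0 the GAS element, 0 AP-1 (6.75%) and 0 the E-box (6.02%). A missing match says only that these letters are not in this window.

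Traf1 (ENSMUSG00000026875, chr2:34941750-34961772, minus strand), an adaptor that binds TRAF2 and lacks the RING domain of the other TRAFs, had 54.6, 42.8 and 44.1 CPM in unstimulated cells, 42.4, 43.2 and 45.8 after IFNα, 260.3, 276 and 220.2 after CpG, and 369, 363 and 358 after CpG + IFNα. The groups without CpG overlapped, and the 3 samples with CpG + IFNα were all above the 3 with CpG. Traf1 was up-regulated 5.31-fold by CpG (log2 2.41, SE 0.14, edgeR adjusted p = 2.42e-16) and 7.66-fold by CpG + IFNα (log2 2.94, SE 0.14, edgeR adjusted p = 5.47e-19), the only member of the set that was a DEG upward in either comparison (20.1% and 20.3% of all genes). IFNα alone gave a log2 difference of -0.11 (95% interval -0.46 to 0.24, edgeR adjusted p = 0.722).

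Traf5 (ENSMUSG00000026637, chr1:191997205-192092559, minus strand), which works beside TRAF2 below CD40 and related receptors, was the most abundant TRAF RNA without CpG. It had 147, 134 and 138 CPM in unstimulated cells, 213, 219.5 and 199 after IFNα, 19.6, 27.1 and 23.5 after CpG, and 45.8, 58.3 and 64.2 after CpG + IFNα. The 4 groups did not overlap, in the order IFNα, unstimulated, CpG + IFNα and CpG. Traf5 rose 1.51-fold with IFNα (log2 0.59, SE 0.12, edgeR adjusted p = 0.000456), the only gene of the set that rose there, and fell 5.99-fold with CpG (log2 -2.58, SE 0.16, edgeR adjusted p = 1.03e-15) and 2.48-fold with CpG + IFNα (log2 -1.31, SE 0.13, edgeR adjusted p = 1.94e-10). Its highest group mean was 9.00 times its lowest, the widest range of the 10 genes. The annotated gene overlaps the pseudogene Gstp-ps on the same strand, which had at most 65 counts in a sample, and the strand setting of the authors' counting is not given in the sources used here.

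Traf2 and Traf3, whose products act together against NIK, moved apart. Traf3 (ENSMUSG00000021277, chr12:111166370-111267153, plus strand) is the adaptor that holds NIK in the degrading complex, and the promoter before its start (chr12:111166120-111166369, plus strand) was the only member promoter with a match to the NF-κB consensus, which 3.899% of all promoters held. The match, in capitals, covers the positions from -10 to -1 before the start.
Traf3: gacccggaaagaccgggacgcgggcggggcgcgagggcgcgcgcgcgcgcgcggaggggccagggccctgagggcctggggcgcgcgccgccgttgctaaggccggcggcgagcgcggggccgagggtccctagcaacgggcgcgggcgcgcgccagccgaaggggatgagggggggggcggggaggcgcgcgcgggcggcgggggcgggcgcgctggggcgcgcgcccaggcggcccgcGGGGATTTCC
Traf3 had 53.7, 47.1 and 49.4 CPM in unstimulated cells, 33.3, 33.4 and 38.9 after IFNα, 39.9, 37.8 and 42.9 after CpG, and 36.5, 33.8 and 34.4 after CpG + IFNα. All stimulated samples were below all unstimulated samples. It fell 1.42-fold with IFNα (log2 -0.51, SE 0.17, edgeR adjusted p = 0.0353) and 1.44-fold with CpG + IFNα (log2 -0.53, SE 0.16, edgeR adjusted p = 0.00435). The IFNα call was lost without unstimulated replicate 1 (edgeR adjusted p = 0.138) and without IFNα replicate 2 (edgeR adjusted p = 0.109), with no filter on low counts (edgeR adjusted p = 0.105), and with DESeq2 (adjusted p = 0.162). With CpG the log2 fold change was -0.31 (SE 0.16, edgeR adjusted p = 0.0872), and this call was lost when any of the 12 samples was left out (edgeR adjusted p from 0.105 to 0.274), with no filter (0.342), with all samples drawn down to the smallest total count (0.357) and with DESeq2 (0.244).

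Traf2 (ENSMUSG00000026942, chr2:25517982-25546940, minus strand), which recruits the cIAPs, had 52.8, 43.9 and 52.1 CPM in unstimulated cells, 40.4, 54.1 and 51.9 after IFNα, 67.5, 62.0 and 57.9 after CpG, and 93.3, 82.5 and 79.7 after CpG + IFNα. The samples with CpG were all above those without it, and those with CpG + IFNα were above those with CpG. Traf2 rose 1.70-fold with CpG + IFNα (log2 0.77, SE 0.15, edgeR adjusted p = 3.16e-05). With CpG its log2 fold change was 0.32 (SE 0.16, edgeR adjusted p = 0.0686), a call that was lost without unstimulated replicate 2 (edgeR adjusted p = 0.175), unstimulated replicate 3 (edgeR adjusted p = 0.108) or CpG replicate 1 (edgeR adjusted p = 0.156), with RLE size factors (0.108), with drawn-down counts (0.305) and with DESeq2 (adjusted p = 0.189). With IFNα the difference was -0.01 on the log2 scale (95% interval -0.35 to 0.34, edgeR adjusted p = 0.985). The share of Traf2 in the counts of Traf2 and Traf3 together, a measure chosen after the data were seen, was 49.7 ± 1.54% in unstimulated cells, 57.9 ± 3.57% after IFNα, 60.8 ± 2.95% after CpG and 70.9 ± 1.02% after CpG + IFNα. The lowest sample with CpG + IFNα was at 69.8% (95% Clopper-Pearson interval 63.3 to 75.8%) and the highest unstimulated sample at 51.3% (41.8 to 60.7%), while the IFNα and CpG groups overlapped.

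**Figure D3:**
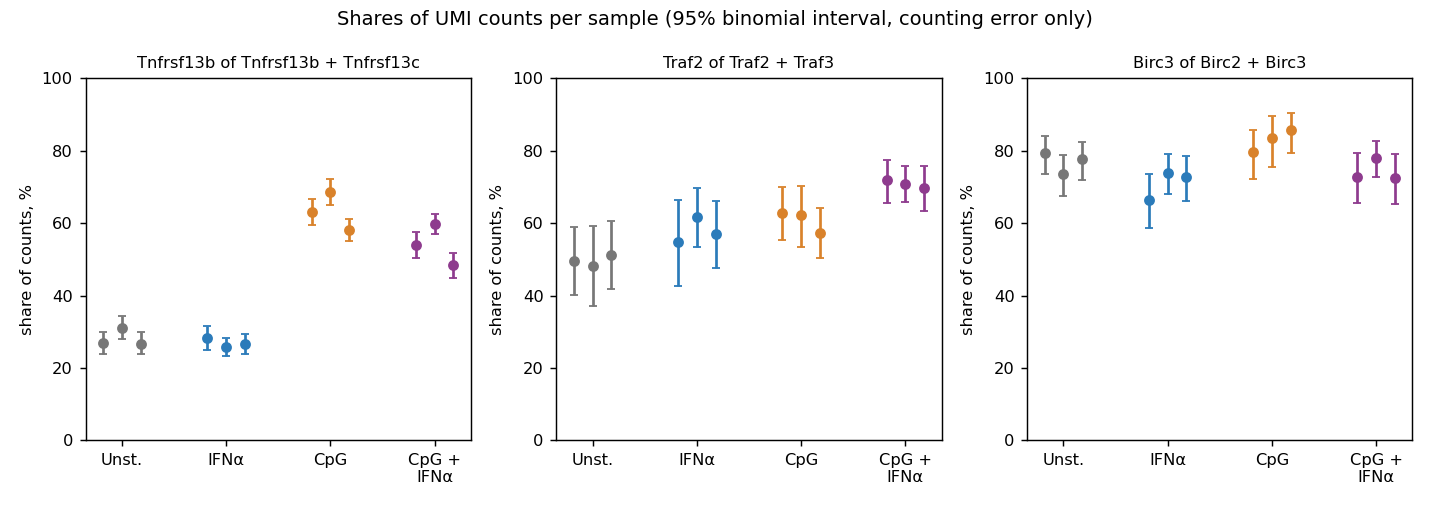
Share of counts in percent (y axis, 0 to 100) for Tnfrsf13b among both receptors, Traf2 among Traf2 and Traf3, and Birc3 among both cIAP genes, for each sample with its 95% Clopper-Pearson interval, which covers counting error only. The receptor share lies between 25.8 and 31.2% without CpG and between 48.4 and 68.7% with CpG, the Traf2 share is highest with CpG + IFNα, and the Birc3 share stays between 66.5 and 85.6%.

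Traf6 (ENSMUSG00000027164, chr2:101678429-101701669, plus strand), the ubiquitin ligase below MyD88, had the lowest level of the TRAF genes in unstimulated cells, with 44.6, 35.3 and 30.003 CPM there, 40.4, 25.5 and 38.2 after IFNα, 19.0, 27.8 and 25.5 after CpG, and 30.001, 38.3 and 25.2 after CpG + IFNα. Only the CpG and unstimulated groups did not overlap. It fell 1.52-fold with CpG (log2 -0.61, SE 0.23, edgeR adjusted p = 0.0185), a call that was lost without unstimulated replicate 1 (edgeR adjusted p = 0.161) or CpG replicate 1 (edgeR adjusted p = 0.105). With CpG + IFNα the difference was -0.21 on the log2 scale (95% interval -0.63 to 0.22, edgeR adjusted p = 0.384), and with IFNα it was -0.11 (-0.57 to 0.34, edgeR adjusted p = 0.785).

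The make-up of the TRAF RNAs thus turned over with CpG. The summed CPM of the 5 TRAF genes was 323 ± 26.6 in unstimulated cells, 373 ± 3.34 after IFNα, 402 ± 30.5 after CpG and 570.5 ± 8.05 after CpG + IFNα. Of their counts, Traf5 held 43.3 ± 1.34% in unstimulated cells and 56.4 ± 2.78% with IFNα, but 5.82 ± 0.857% with CpG and 9.85 ± 1.75% with CpG + IFNα. Traf1 held 14.6 ± 0.782% and 11.7 ± 0.440% without CpG, and 62.5 ± 2.62% and 63.7 ± 0.587% with CpG and CpG + IFNα. Traf1 thus held similar shares in both CpG groups, while its level was higher in CpG + IFNα.

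**Figure D4:**
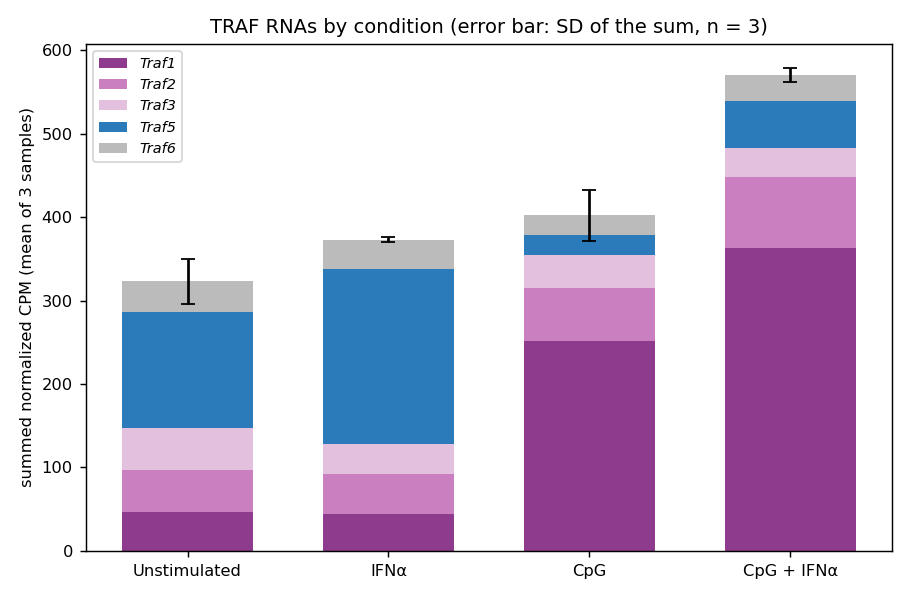
Summed CPM of the 5 TRAF genes (y axis, from 0), stacked by gene as means of 3 samples in the 4 groups, with the SD of the sum as the error bar. Traf5 is the largest part of the bar in the groups without CpG and Traf1 in the groups with CpG, and the bar is tallest with CpG + IFNα, at 570.5 CPM.

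Both cIAP genes, which are neighbours on chromosome 9, fell with CpG. Birc2 (ENSMUSG00000057367, chr9:7818227-7837064, minus strand) has 2 RefSeq promoters in the table, which are shown because each held a motif that no other member promoter held. In the promoter at chr9:7837058-7837307 the CRE, in capitals, lies at -35 to -28 before the start (1.55% of all promoters), and in the promoter at chr9:7836807-7837056 the ETS-IRF composite, in capitals and on the opposite strand, lies at -26 to -17 (2.30% of all promoters). The tail of the table entry was found in a GENCODE transcript for the promoter with the CRE and not for that with the ETS-IRF composite.
Birc2, CRE: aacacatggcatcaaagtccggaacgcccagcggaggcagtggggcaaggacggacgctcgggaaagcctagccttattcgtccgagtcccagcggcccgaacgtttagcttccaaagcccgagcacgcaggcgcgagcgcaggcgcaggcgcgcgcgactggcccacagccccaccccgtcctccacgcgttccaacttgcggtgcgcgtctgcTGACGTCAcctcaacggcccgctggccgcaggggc
Birc2, ETS-IRF: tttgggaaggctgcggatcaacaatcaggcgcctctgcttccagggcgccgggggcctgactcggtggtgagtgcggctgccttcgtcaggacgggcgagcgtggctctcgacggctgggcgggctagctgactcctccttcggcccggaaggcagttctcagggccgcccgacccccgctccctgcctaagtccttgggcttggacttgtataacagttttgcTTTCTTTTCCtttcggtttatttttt
Birc2 had 47.3, 71.7 and 51.2 CPM in unstimulated cells, 55.5, 40.7 and 45.0 after IFNα, 19.0, 13.5 and 12.0 after CpG, and 26.2, 21.7 and 24.7 after CpG + IFNα. The CpG and CpG + IFNα groups did not overlap each other or the groups without CpG. The gene fell 3.80-fold with CpG (log2 -1.93, SE 0.22, edgeR adjusted p = 2.19e-09) and 2.34-fold with CpG + IFNα (log2 -1.23, SE 0.19, edgeR adjusted p = 1.07e-06). With IFNα the difference was -0.28 on the log2 scale (95% interval -0.66 to 0.10, edgeR adjusted p = 0.337).

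Birc3 (ENSMUSG00000032000, chr9:7848699-7873186, minus strand) had 181, 199 and 177 CPM in unstimulated cells, 110.0, 115 and 120 after IFNα, 74.3, 68.4 and 71.4 after CpG, and 70.4, 77.3 and 65.3 after CpG + IFNα. The IFNα samples lay between the unstimulated samples and both CpG groups, which overlapped each other. It fell 1.61-fold with IFNα (log2 -0.69, SE 0.12, edgeR adjusted p = 3.37e-05), 2.59-fold with CpG (log2 -1.38, SE 0.12, edgeR adjusted p = 7.49e-12) and 2.60-fold with CpG + IFNα (log2 -1.38, SE 0.12, edgeR adjusted p = 2.94e-12). Birc3 remained the more abundant cIAP RNA, with 76.8 ± 2.97% of the counts of both genes in unstimulated cells, 71.0 ± 3.96% after IFNα, 82.9 ± 3.05% after CpG and 74.5 ± 3.08% after CpG + IFNα. Of the 81-base windows in the last 1000 bases of Birc3, 2.68% also occur in Birc2 or in 3 other annotated genes, and for the other 9 genes 0% of such windows were shared, which limits reads that could be assigned to the wrong gene.

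Map3k14 (ENSMUSG00000020941, chr11:103219762-103267472, minus strand), which encodes NIK, had the deepest loss. It had 48.2, 70.6 and 60.0 CPM in unstimulated cells, 38.3, 29.8 and 38.2 after IFNα, 6.14, 5.70 and 8.99 after CpG, and 7.09, 8.62 and 13.4 after CpG + IFNα. Unstimulated, IFNα and CpG-treated samples did not overlap, whereas the groups with CpG and CpG + IFNα did. Map3k14 fell 8.24-fold with CpG (log2 -3.04, SE 0.25, edgeR adjusted p = 2.02e-12), 6.12-fold with CpG + IFNα (log2 -2.61, SE 0.23, edgeR adjusted p = 4.50e-12) and 1.69-fold with IFNα (log2 -0.76, SE 0.20, edgeR adjusted p = 0.00581). The CpG values rest on between 8 and 18 counts per sample and those of CpG + IFNα on between 13 and 26 counts, so that differences between these groups were measured with little depth.

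The comparison of CpG + IFNα with CpG asks what the interferon added to TLR9-stimulated cells. Of the 10 genes 5 changed, 4 up and 1 down, beside 15.4% of all genes tested (6.54% up, 8.83% down), and 6 did not overlap between the groups, beside 28.2% of all genes. The median of the 10 log2 values was 0.41, and over all genes it was -0.04. Traf5 was the only DEG (4.96% of all genes), at 2.42-fold higher with the interferon (log2 1.27, SE 0.16, edgeR adjusted p = 3.81e-07). Traf1 rose 1.44-fold (log2 0.53, SE 0.11, edgeR adjusted p = 0.000466). These 2 calls held when any sample was left out.

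The other 3 calls of CpG + IFNα against CpG were lost when single samples were left out. Traf2 rose 1.36-fold (log2 0.45, SE 0.13, edgeR adjusted p = 0.0245), and the call was lost without CpG replicate 3 (edgeR adjusted p = 0.145) or CpG + IFNα replicate 1 (edgeR adjusted p = 0.121). Birc2 rose 1.62-fold (log2 0.70, SE 0.23, edgeR adjusted p = 0.0393), and the call was lost without CpG replicate 2 (edgeR adjusted p = 0.117), CpG replicate 3 (edgeR adjusted p = 0.235) or CpG + IFNα replicate 1 (edgeR adjusted p = 0.111), with drawn-down counts (0.307) and with DESeq2 (adjusted p = 0.128). Tnfrsf13b, the receptor that CpG alone had raised, fell 1.28-fold (log2 -0.35, SE 0.12, edgeR adjusted p = 0.0538). That call was lost without unstimulated replicate 3 (edgeR adjusted p = 0.113), CpG replicate 2 (edgeR adjusted p = 0.213), or CpG + IFNα replicates 1 (edgeR adjusted p = 0.142) and 3 (edgeR adjusted p = 0.234), with no filter (0.195) and with DESeq2 (adjusted p = 0.163). The number of changed genes was 3 without CpG replicate 2 or CpG replicate 3, and 2 without CpG + IFNα replicate 1.

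Among the 5 genes that did not pass the test, the log2 difference between CpG + IFNα and CpG was 0.17 for Tnfrsf13c (95% interval -0.07 to 0.41), -0.21 for Traf3 (-0.53 to 0.10) and 0.40 for Traf6 (-0.02 to 0.82). For Map3k14 it was 0.43, with an interval of -0.21 to 1.07 that reflects its low counts. Birc3 was at 71.4 ± 2.93 CPM with CpG and 71.0 ± 6.03 CPM with CpG + IFNα, and its interval of -0.25 to 0.25 on the log2 scale does not reach a 2-fold change.

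The interaction, which is the log2 effect of IFNα in the presence of CpG minus its effect in its absence, was positive and past the test for 5 of the 10 genes, beside 13.4% of all genes in either direction and 5.84% in this direction. Its median was 0.58 over the 10 genes and -0.05 over all genes. For Birc3 it was 0.69 (SE 0.17, edgeR adjusted p = 0.00808): IFNα lowered the gene by 0.69 without CpG and gave a difference of 0.00 with it. This was the only interaction call that held when any sample was left out. Map3k14 had the largest interaction, 1.19 (SE 0.37, edgeR adjusted p = 0.0399), the only one over 2-fold (6.26% of all genes), with an IFNα effect of -0.76 without CpG and 0.43 with it. Its call was lost without CpG replicate 1 (edgeR adjusted p = 0.101), CpG replicate 2 (edgeR adjusted p = 0.101) or CpG + IFNα replicate 3 (edgeR adjusted p = 0.160), with drawn-down counts (0.103) and with DESeq2 (adjusted p = 0.117).

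Birc2 had an interaction of 0.98 (SE 0.29, edgeR adjusted p = 0.0307), which was lost without unstimulated replicate 2 (edgeR adjusted p = 0.103) or CpG replicate 3 (edgeR adjusted p = 0.122), with drawn-down counts (0.224) and with DESeq2 (adjusted p = 0.116). For Traf5 it was 0.68 (SE 0.21, edgeR adjusted p = 0.0332), with a rise in both settings that was larger with CpG, and it was lost without CpG replicate 1 (edgeR adjusted p = 0.127) and with drawn-down counts (0.162). For Traf1 it was 0.64 (SE 0.20, edgeR adjusted p = 0.0420), lost without unstimulated replicate 1 (edgeR adjusted p = 0.190) or CpG replicate 3 (edgeR adjusted p = 0.112). The 2 receptors, Traf2, Traf3 and Traf6 had interactions between -0.20 and 0.51 that did not pass the test, which does not show that their response to IFNα was the same in both settings. The number of interaction calls was 3 without CpG replicate 1 or CpG replicate 3, 2 with drawn-down counts and 3 with DESeq2. Over all genes, these fits called 1012 of 9636, 1007 of 9638, 874 of 8684 and 714 of 9362, where all samples gave 1266 of 9431 by edgeR. Because the interaction uses the unstimulated samples, it cannot be told apart from an effect of culture either.

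**Figure D5:**
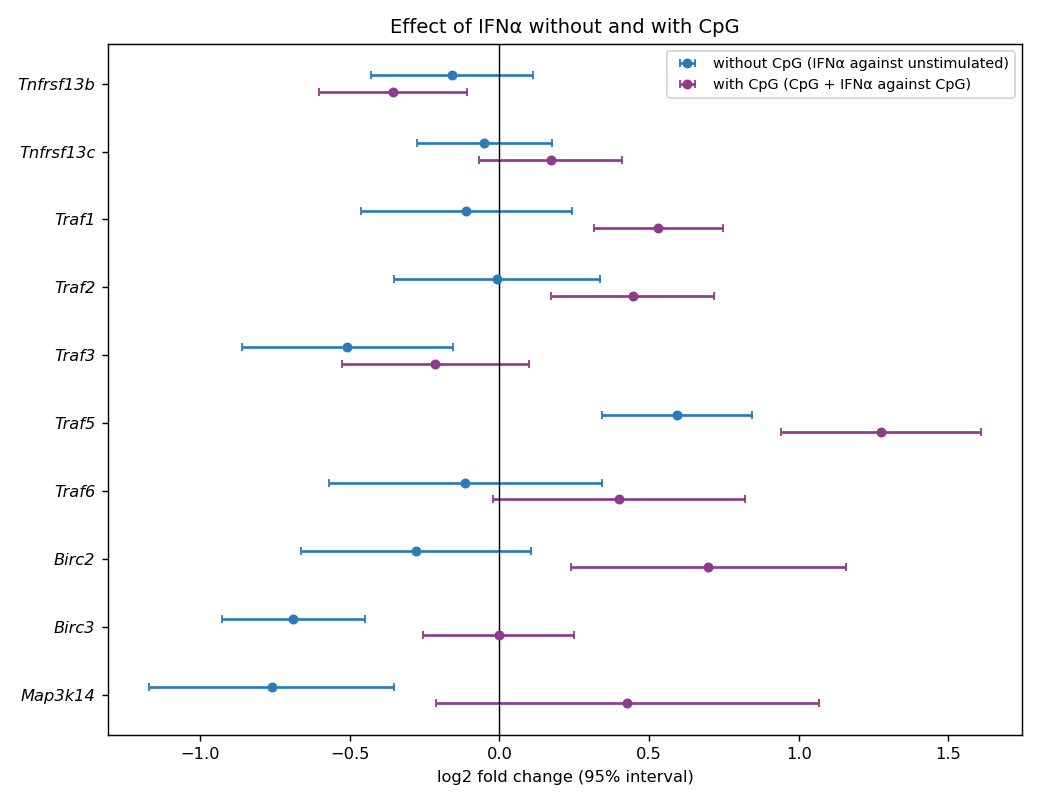
Log2 effect of IFNα (x axis) on each of the 10 genes without CpG (IFNα against unstimulated) and with CpG (CpG + IFNα against CpG), with 95% intervals. For Birc3 and Map3k14 the effect without CpG lies below 0 (-0.69 and -0.76) and the interval of the effect with CpG includes 0, while Traf5 lies above 0 in both (0.59 and 1.27).

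Set against IFNα alone, cells given CpG + IFNα had 8 changed genes, 3 up and 5 down, beside 75.9% of all genes (36.1% up, 39.8% down), of which 4 were DEGs (44.3%), and 7 genes did not overlap (72.4%). Traf1 was 8.27-fold higher (log2 3.05, edgeR adjusted p = 1.28e-19) and Traf2 1.71-fold higher (log2 0.78, edgeR adjusted p = 1.52e-05). Traf5 was 3.73-fold lower (log2 -1.90, edgeR adjusted p = 5.41e-15), Map3k14 3.62-fold lower (log2 -1.85, edgeR adjusted p = 3.15e-08), and Tnfrsf13c 2.76-fold lower (log2 -1.46, edgeR adjusted p = 3.32e-13). The cIAP genes were below the DEG threshold, with log2 fold changes of -0.95 for Birc2 and -0.69 for Birc3. For Tnfrsf13b the log2 fold change was 0.24 (edgeR adjusted p = 0.0945) with overlapping groups, and this call was lost without IFNα replicate 2 (edgeR adjusted p = 0.208), IFNα replicate 3 (edgeR adjusted p = 0.116) or CpG + IFNα replicate 2 (edgeR adjusted p = 0.393), with RLE size factors (0.108), drawn-down counts (0.179) and DESeq2 (adjusted p = 0.149). Traf3 and Traf6 differed by -0.02 (95% interval -0.35 to 0.32) and -0.09 (-0.51 to 0.32).

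Other genes of the same circuits were read from 6 lists of 94 genes, of which 69 were tested, 19 were in the table but too low to test, and 6 were not analysed here, among them those of the ligands BAFF and APRIL. Over the 69 genes, 11 rose and 31 fell with CpG, where 36.5% of all genes tested rose and 38.4% fell. With IFNα 12 rose and 10 fell (12.4% and 11.9% of all genes), and with CpG + IFNα 18 rose and 29 fell (37.6% and 38.8%). Their median log2 fold changes in these comparisons were -0.32, 0.04 and -0.14. Against CpG, the addition of IFNα raised 13 and lowered 4 (median 0.06), beside 6.54% and 8.83% of all genes, and the total of 17 became 10 without CpG replicate 3 or CpG + IFNα replicate 2 and 10 with DESeq2. Over all genes, these 3 fits called 983 of 9638, 970 of 9643 and 816 of 10146, where all samples gave 1450 of 9431 by edgeR. Against IFNα the addition of CpG raised 16 and lowered 33 (median -0.29), beside 36.1% and 39.8% of all genes. The interaction was higher for 9 and lower for 4, beside 13.4% of all genes in either direction.

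Among 8 tested ligands and TNF receptors, CpG raised 2 (36.5% of all genes) and lowered 4 (38.4%), and IFNα lowered 3 (11.9%). Ltb, which encodes lymphotoxin β, fell from 988 CPM in unstimulated cells to 15.4 with CpG (log2 -6.02, edgeR adjusted p = 1.63e-23), and Tnf rose from 6.19 to 31.7 CPM (log2 2.32, edgeR adjusted p = 1.53e-07). Tnfrsf18, which encodes GITR, fell from 16.9 to 0.870 CPM (log2 -3.98, edgeR adjusted p = 7.92e-08), a fitted value that at so low a level depends on the prior count. Lta, which encodes lymphotoxin α, fell with IFNα from 39.7 to 4.36 CPM (log2 -3.11, edgeR adjusted p = 2.31e-10), and Tnfrsf21, which encodes death receptor 6, rose with CpG from 3.83 to 11.4 CPM (log2 1.56, edgeR adjusted p = 0.00178). Cd40, a receptor that also acts through TRAF2, TRAF3 and NIK, was at 132 CPM in unstimulated cells, 83.7 after IFNα, 125 after CpG and 215 after CpG + IFNα. It fell with IFNα (log2 -0.65, edgeR adjusted p = 0.000854) and was higher with CpG + IFNα than with CpG (log2 0.78, edgeR adjusted p = 9.53e-06).

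In the NIK pathway list, CpG lowered 2 of 7 tested genes (38.4% of all genes) and raised 0 (36.5%). IFNα raised 3 (12.4%) and lowered 2 (11.9%). Relb, the partner of p52, fell with CpG (log2 -1.25, edgeR adjusted p = 1.52e-07), as did the deubiquitinase Otud7b, which stabilizes TRAF3 (log2 -0.89, edgeR adjusted p = 2.51e-05). Nfkb2 fell with IFNα (log2 -0.71, edgeR adjusted p = 0.000180), and with CpG its log2 difference was -0.17 (edgeR adjusted p = 0.237). Unlike Map3k14, Nfkb2 was at 143 CPM with CpG beside 160 CPM in unstimulated cells.

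Of 15 other TRAF genes and adaptors, CpG raised 1 (36.5% of all genes) and lowered 7 (38.4%). IFNα raised 2 (12.4%) and lowered 2 (11.9%). The gene that CpG raised was Traf4, from 43.0 to 88.9 CPM (log2 1.06, edgeR adjusted p = 9.96e-07), and it reached 147 CPM with CpG + IFNα. Trafd1, an interferon-inducible regulator with a TRAF-type zinc finger, rose from 49.6 to 311 CPM with IFNα (log2 2.65, edgeR adjusted p = 6.74e-17). Traf3ip3, a partner of TRAF3, fell from 111 to 13.7 CPM with CpG (log2 -3.03, edgeR adjusted p = 1.06e-16).

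Of 8 other IAP genes and their antagonists or caspases, CpG raised 2 (36.5% of all genes) and lowered 6 (38.4%). IFNα raised 2 (12.4%) and lowered 0 (11.9%). Casp9, the caspase inhibited by XIAP, fell from 27.4 to 2.94 CPM with CpG (log2 -3.24, edgeR adjusted p = 8.45e-09), and the interferon-inducible XIAP antagonist Xaf1 was at 34.4 CPM in unstimulated cells, 298 after IFNα, 7.93 after CpG and 161 after CpG + IFNα. The list of TLR signaling to TRAF6 had 4 genes up (36.5% of all genes) and 7 down (38.4%) of 15 with CpG. With IFNα 2 were up (12.4%) and 1 down (11.9%). The genes raised by IFNα were Tlr9 (log2 1.20, edgeR adjusted p = 1.33e-09) and Myd88 (log2 0.84, edgeR adjusted p = 0.00147), and the Tlr9 value rests on an annotation that the authors extended by 3 kb. Of 16 ubiquitin editors, CpG raised 2 (36.5% of all genes) and lowered 5 (38.4%), and IFNα raised 3 (12.4%) and lowered 2 (11.9%). Tnfaip3, which encodes the NF-κB inhibitor A20, was at 101 CPM in unstimulated cells, 17.2 after IFNα, 106 after CpG and 109 after CpG + IFNα, and against unstimulated cells it passed the test with IFNα alone (log2 -2.52, edgeR adjusted p = 5.63e-10).

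By the correlation of log2 CPM over the 12 samples, a description that the 4 group means mostly set, the gene most like Tnfrsf13c was Sdcbp (r = 0.995), and that most like Traf1 was Hacd3 (r = 0.995). Map3k14 was most like R3hcc1l (r = 0.993), Traf5 most like 9930111J21Rik2 (r = 0.992), and Birc3 most like Ddx6 (r = 0.987). For Traf2, Birc2, Traf3 and Tnfrsf13b the most similar genes were Zfp131 (r = 0.968), Parp4 (r = 0.965), Lmo2 (r = 0.948) and Cluap1 (r = 0.932). Traf6, whose groups overlapped most, had the weakest nearest neighbour, Mynn (r = 0.836).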

How the data were processed

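FO B cells of mouse spleen were profiled by bulk RNA barcoding sequencing in 12 samples, grouped by their titles. The deposited table, as the authors made it, holds raw UMI counts. By the methods of the study and the submitters' processing notes, reads were trimmed with Trim Galore 0.6.7, mapped to GRCm38 with HISAT2 2.2.1, assigned with featureCounts 2.0.1 and counted as unique UMIs with UMI-tools 1.1.2. The annotation release and the strand setting are not given in the sources used here. All gene identifiers are in GENCODE M21, which gave positions.

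With edgeR 4.0.16 (R 4.3.3), counts were scaled by TMM, 9431 genes were kept by filterByExpr and all 12 samples were fitted by group (quasi-likelihood test, 8 residual degrees of freedom). P-values were adjusted by Benjamini-Hochberg over all genes tested, and the comparisons numbered 6. Totals were between 922450 and 2923865 counts per sample, and the counts of replicates differed beyond sampling noise in all 12 pairs (chi-square / df between 1.93 and 6.96). No column of per-sample values was left unmapped.

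The members, the gene lists and the tests were chosen with earlier results of these data known. All 10 members are named in every comparison. Genes of the lists were drawn from those with an adjusted p under 0.1 and the largest fold changes, at most 3 in each direction for each list and comparison, besides Cd40, Nfkb2, Relb, Tnfaip3 and Myd88. For each member the most correlated genes are named.

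The test was tried on simulated counts in which genes of the CpG + IFNα group were changed by 2 on the log2 scale: of 193 changed genes among 9073, it called 192 against CpG with 14 false calls, and 174 in the interaction with 19. The simulated dispersion was 0.02, and few genes were changed. These rates therefore do not cover smaller changes, or a response of most genes such as that to CpG. Alternatives were RLE size factors, library size only, no filter, other thresholds, DESeq2 1.42.0, only the compared groups in the fit, thinned counts, removal of rRNA and mitochondrial genes, a replicate block, and leaving out each sample. Those for the lists and for the share of Traf2 were added after the data were seen. Promoters came from RefSeq (GRCm38.p6). Protein sequences were not used here, and a marker gene of the B cell list is not reported here.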

Additional observations from a re-analysis of the deposited data

Results flagged for a closer look

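By edgeR's interaction test (Benjamini-Hochberg adjusted p under 0.1), the difference between groups with and without IFNα depended on CpG for 5 of the 10 genes. Over all genes tested the share was 13.4% (5.84% in the positive direction of these 5). Because this test uses the unstimulated samples, such a difference cannot be told apart from an effect of culture. Of the 5 calls, 4 were lost when 1 sample was left out, and that of Birc3 was not. The difference in log2 effect was 0.64 for Traf1, 0.68 for Traf5, 0.98 for Birc2, 0.69 for Birc3 and 1.19 for Map3k14. In the surrounding pathway lists 13 of 69 tested genes differed in the same test. Their values were 3.83 for Lta, 1.43 for Cd40, 0.78 for Nfkb2, 0.65 for Relb, 1.54 for Traf4, 1.20 for Xaf1, 0.47 for Ikbkb, 2.57 for Tnfaip3 and 0.88 for Zc3h12a in the positive direction. In the negative direction they were -0.47 for Peli1, -0.52 for Tlr9, -1.01 for Irak3 and -0.59 for Otud5. With each sample left out in turn, the calls of Relb, Peli1, Tlr9, Irak3 and Ikbkb were lost in 8, 6, 4, 8 and 10 of 12 fits, and those of the other 8 list genes in 0. Single genes were not tested for outlying samples, since the groups hold 3 samples each.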

How the results depend on the processing

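For the 10 genes, the direction of every change that passed the test was kept under every alternative run, and directions of list genes were not tabulated under the alternatives. Of 1310 alternative values for the 10 genes, 1189 kept direction and side of the threshold, 85 lost the call (23 results), 1 gained it, and 35 turned sign (9 results, none past the test). Where a call was lost, the cause was not tested.

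With the DEG threshold, 0 of the 10 genes were called for IFNα (8.63% of all genes, edgeR, where 4 had an unadjusted p under 0.05 and 0 were over 2-fold by DESeq2), 6 for CpG, 1 for CpG + IFNα against CpG, 4 against IFNα and 1 in the interaction. Of the 69 list genes the numbers were 6 (IFNα), 26 (CpG), 20 (CpG + IFNα), 2 (against CpG), 24 (against IFNα) and 6 (interaction), beside 8.63%, 45.6%, 45.9%, 4.96%, 44.3% and 6.26% of all genes. DESeq2 gave 3 genes against CpG, 3 in the interaction, and 10 and 8 list genes. Over all genes it called 816 of 10146 against CpG and 714 of 9362 in the interaction. Drawn-down counts gave 2 genes in the interaction, beside 874 of 8684 over all genes, and a Traf1 share of 64.45% with CpG + IFNα. An adjusted p under 0.05 gave 8 list genes in the interaction, beside 849 of 9431 over all genes. With each sample left out, CpG + IFNα against CpG gave between 2 and 5 genes and between 10 and 18 list genes (10 without CpG replicate 3 or CpG + IFNα replicate 2), and the interaction between 3 and 5 genes. Over all genes these fits called between 970 and 1634 against CpG, and between 945 and 1481 in the interaction.

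Values near 0 that turned sign were these. Birc3 against CpG was 0.018 (RLE), 0.060 (no filter), 0.028 (only the groups compared), 0.054 (drawn down), 0.033 (no rRNA or mitochondrial genes), 0.022 (DESeq2) and -0.075 to 0.053 with samples left out. Traf3 against IFNα was 0.033 (library size), 0.098 (no filter), 0.0092 (only the groups compared), 0.028 (no rRNA or mitochondrial genes), 0.0018 (DESeq2) and -0.054 to 0.081 with samples left out. Traf6 against IFNα was 0.022 (no filter) and -0.29 to 0.051. With IFNα against unstimulated cells, Traf6 was 0.061 (drawn down) and -0.28 to 0.10, Tnfrsf13b -0.27 to 0.0065, Tnfrsf13c -0.10 to 0.0016, Traf1 -0.19 to 0.015 and Traf2 -0.087 to 0.099. Tnfrsf13b with CpG + IFNα was -0.024 (drawn down) and -0.019 to 0.26.

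Samples with the same replicate number correlated weakly in their deviations from group means (r from -0.065 to 0.205, over 0.1 in 5 of 18 pairs), and 10 of 12 samples correlated best with their own number, which is a hint from the data. The deposited barcode list gives each condition once under each of 3 sample prefixes, which may mark animals, but what they mark and how they map to the replicate numbers is not stated in the sources used here. With the replicate number as a block, 4 (IFNα), 10 (CpG), 8 (CpG + IFNα), 5 (against CpG), 8 (against IFNα) and 5 (interaction) genes were called, as without it. Over all genes, the fit with this block called 2450, 7121, 7251, 1629, 7228 and 1406 of 9431 in the same order.

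Over all genes, DESeq2 called 816 for CpG + IFNα against CpG and 714 in the interaction, where edgeR called 1450 and 1266, and drawn-down counts gave 960 against CpG. The share of higher among called genes was 51.1% for IFNα and 38.4% with library size only, 43.5% for the interaction and 55.4% with library size only, and 42.6% against CpG and 57.7% without the filter. Depth limits Map3k14 most, with 8 counts in its lowest sample.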
